A study of Mus musculus with 14 samples.

Results

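Toll-like receptor mRNA was followed in mouse epididymal fat through 10 genes, taken as the rows of the deposited table whose symbol was Tlr1, Tlr2, Tlr4, Tlr6, Tlr7, Tlr8, Tlr9, Tlr13, Cd14 or Ly96, out of 23282 rows in all. The fat came from wild-type male C57BL/6J mice, 4 weeks old at the start, that were fed a normal (standard) diet or a Western diet (WD) for 20 weeks. The 14 libraries fall into 4 normal diet libraries of batch 1 (controls 1 to 4), 5 WD libraries of batch 1 (WD 1 to 5) and 5 normal diet libraries of batch 2 (controls 5 to 9). No genotype or agent other than the diet differed between the groups, and the labels number the batches without saying what a batch was. As all WD libraries are in batch 1, diet and batch can be separated only within batch 1.

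Toll-like receptors are membrane proteins that recognize molecules of microbes and of damaged cells and pass the signal on through the adaptors MyD88 and TRIF to NF-kB and interferon regulatory factors. Receptors on the cell surface bind lipids and lipoproteins, whereas those of the endosome bind nucleic acids. In adipose tissue they are best known from macrophages, and TLR4 is also made by the fat cells themselves.

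Expression was measured by QuantSeq, in which cDNA is primed with oligo-dT, so that reads come from the 3′ ends of transcripts and a count does not grow with transcript length. Levels are compared mainly between libraries, and where genes are set beside one another the values are descriptions only. Library totals ranged from 10278970 to 13712254 counts. Levels are given as counts or as CPM, which set each count against its library's total after scaling with edgeR's TMM factors. The floor was set at 3 counts, between 0.213 and 0.32 CPM, and covers counting error only. Adipocyte markers (Adipoq, Plin1, Lep, Cidec and Fabp4) summed to 3938 CPM in control 1 and to between 29817 and 37901 in the other batch 1 controls, 20714 and 34856 in WD, and 36703 and 45871 in the batch 2 controls. Control 1 also held 58281 CPM of 9 epididymis genes, against at most 38 CPM in any other library, and control 4 had the fewest genes with a count, 7999 against 10903 to 13780 in the others. Comparisons with the batch 1 controls were therefore also made without controls 1 and 4, an alternative chosen after seeing the data. Because bulk tissue was sequenced, fewer cells of a type and less RNA per cell cannot be told apart.

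Of the 10 genes, 9 were detected in at least 1 library, and Tlr9 had 0 counts in all 14. All 9 exceeded 3 counts in each of the 5 WD libraries. In the batch 1 controls between 4 and 7 of the 10 genes exceeded 3 counts, and in the batch 2 controls between 5 and 9. Besides Cd14, the genes lie on 6 chromosomes, and no other gene of the GENCODE annotation (GRCm38) overlaps any of them. Tlr1 (chr5:64924679-64933563) and Tlr6 (chr5:64952031-64960097) are neighbours, 18467 bases apart on the minus strand. Tlr7 (chrX:167304929-167330558) and Tlr8 (chrX:167242696-167264329) lie 40599 bases apart, also on the minus strand, with Tlr13 (chrX:106143204-106160493) elsewhere on the same chromosome. Tlr2 (chr3:83836272-83841767), Tlr4 (chr4:66827584-66930284), Tlr9 (chr9:106222598-106226883) and Ly96 (chr1:16688051-16709611) stand alone. Since the authors counted multiple alignments, reads of near-identical stretches can count for more than 1 gene. At the read length of 75 bases, Tlr1 and Tlr6 transcripts share 340 runs, 0 of them in the last 500 bases of an annotated transcript, and Tlr1 shares 11 more, in its last 500 bases, with genes outside the family. The other 8 genes share 0 with any other gene.

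Promoters are shown for 4 genes to set sequence beside the expression values that follow: Tlr1, Tlr6 and Tlr13, for which each WD library lay above each batch 2 control, and Tlr9, for which no read was counted. The runs are from RefSeq on GRCm38.p6, read 5′ to 3′ on the strand of the gene. Each comes from the 250 bases before the outermost RefSeq start and stops before the first annotated exon of GENCODE. Capitals mark the core GAGGAA, which PU.1, the macrophage transcription factor encoded by Spi1, is known to bind.
Tlr1, chr5:64933564-64933808, minus strand: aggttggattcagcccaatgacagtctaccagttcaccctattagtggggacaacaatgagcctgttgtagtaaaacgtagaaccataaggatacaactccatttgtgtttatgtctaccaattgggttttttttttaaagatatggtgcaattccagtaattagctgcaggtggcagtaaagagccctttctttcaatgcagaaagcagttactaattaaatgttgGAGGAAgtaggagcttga
Tlr6, chr5:64960098-64960298, minus strand: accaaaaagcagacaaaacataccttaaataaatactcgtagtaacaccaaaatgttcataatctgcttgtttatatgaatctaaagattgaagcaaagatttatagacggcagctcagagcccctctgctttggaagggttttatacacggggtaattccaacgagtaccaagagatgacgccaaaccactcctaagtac
Tlr13, chrX:106143025-106143203, plus strand: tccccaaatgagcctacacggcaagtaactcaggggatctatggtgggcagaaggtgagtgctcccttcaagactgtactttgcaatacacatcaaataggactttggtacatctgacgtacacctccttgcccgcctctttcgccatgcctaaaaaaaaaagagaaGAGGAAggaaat
Tlr9, chr9:106222348-106222597, plus strand: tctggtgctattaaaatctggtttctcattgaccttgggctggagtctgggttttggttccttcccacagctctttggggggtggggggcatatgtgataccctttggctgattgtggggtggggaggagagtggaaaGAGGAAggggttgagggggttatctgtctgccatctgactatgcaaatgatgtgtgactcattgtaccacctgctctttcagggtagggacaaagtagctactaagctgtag

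The core GAGGAA, on either strand, was found in 4 of the 8 promoter entries of the 6 genes with an entry (Tlr1, Tlr2, Tlr6, Tlr8, Tlr9 and Tlr13), against 23.3% of all 32851 promoter windows of the same 250 bases. It lay 18 bases before the outer Tlr1 start, 78 before the Tlr13 start, 107 before the Tlr9 start and, on the other strand, 72 before the Tlr8 start. Neither Tlr6 entry held it. An NF-kB motif, GGGA and CC with 4 free bases between them on either strand, was found only before Tlr2 among these entries (17.6% of all windows), and an AP-1 motif, TGANTCA, which reads alike on both strands, only before Tlr9 (6.75%). An interferon response element, GAAA repeated after 2 free bases on either strand, was found only before the inner Tlr6 start, in a pair of overlapping matches (2.98% of all windows). Unlike the starts of the other entries, this inner RefSeq start was not found near the beginning of a GENCODE transcript of its gene. A match is a string of letters and not a shown binding site, and no match says only that the letters are not in the window. No entry was used for Tlr4, Tlr7, Cd14 and Ly96.

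The receptors of bacterial lipoproteins are TLR2 and its partners TLR1, for lipopeptides with a triacyl tail, and TLR6, for those with a diacyl tail. Tlr1 had 157, 48, 53, 39 and 36 counts in WD 1 to 5 and 0 in each of controls 1 to 4. In the batch 2 controls it had 0, 0, 0, 4 and 22 counts, the last in control 9. All 5 WD libraries thus lay above all 9 controls. The WD mean was 5.26 ± 3.39 CPM (SD, n = 5), at least 20.8-fold higher than 3 counts per library in the batch 1 controls, where the gene was at 0, and 10.4 times the batch 2 mean of 0.506 ± 0.969 (n = 5). In the exact two-sided permutation test of log2(CPM + 1), Tlr1 reached p = 0.00794 in batch 1, the smallest that 4 against 5 libraries can give, and 0.275 after adjustment over all genes. Against the 9 controls of both batches the exact permutation p was 0.0005, again the smallest possible, and 0.0665 after adjustment.

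Tlr2 had 86, 82, 5, 167 and 57 counts in WD 1 to 5. Its counts were 12, 0, 32 and 63 in controls 1 to 4, and 9, 12, 32, 29 and 5 in controls 5 to 9. In CPM, 4 WD libraries lay above every control, WD 5 by little (4.78 against 4.76 in control 4), whereas WD 3 was below most of them. The means were 6.69 ± 4.85 CPM in WD, 2.14 ± 2.06 in the batch 1 controls and 1.39 ± 0.891 in the batch 2 controls. The edgeR log2 fold change was 1.63 ± 1.57 (SE) in batch 1, with an exact permutation p of 0.167, and 2.25 ± 0.995 against batch 2 (FDR 0.24), with one of 0.0635.

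Tlr6 was the sparser of the partners, with 80, 26, 17, 104 and 11 counts in WD 1 to 5. Among the controls it had 42 counts in control 3, 3 in control 8, 8 in control 9 and 0 in the other 6. Control 3, at 3.49 CPM, lay above 3 of the WD libraries, and the other controls all lay below the WD range of 0.921 to 8.39 CPM. The log2 fold change of 2.09 ± 2.06 in batch 1 (exact permutation p = 0.0952) became 8.51 (FDR 0.483) without control 3, where the remaining batch 1 controls were all at 0 and the fitted size therefore depends on edgeR's prior count. Against the batch 2 controls it was 4.16 ± 1.6 (FDR 0.161, exact permutation p = 0.00794).

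**Figure D1:**
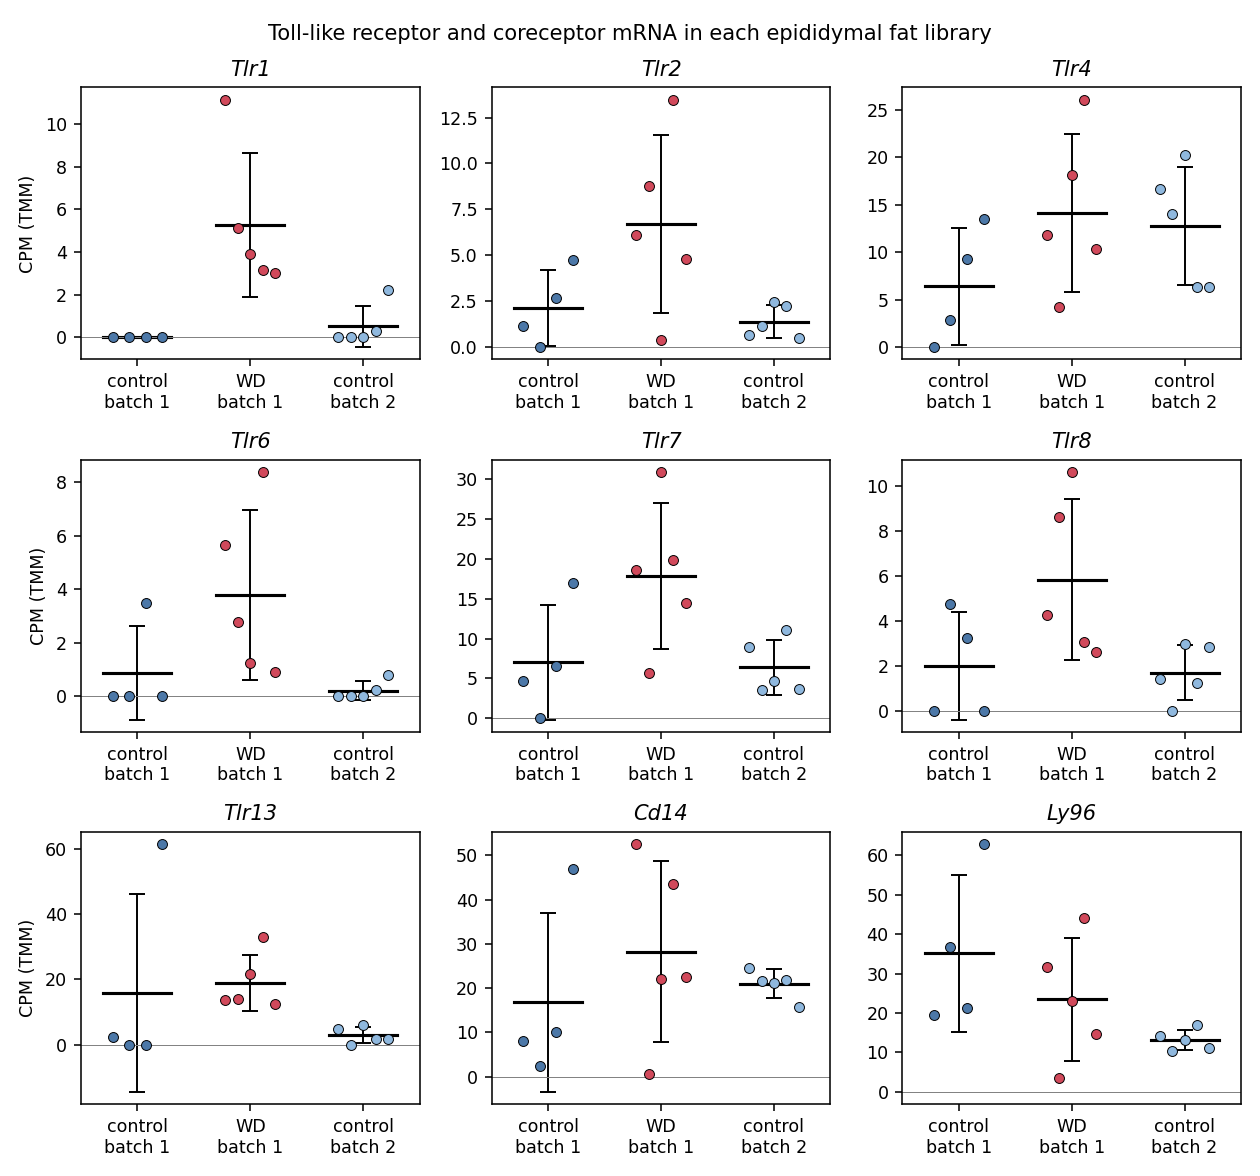
CPM of the 9 detected genes, 1 panel per gene, in the 4 batch 1 controls, the 5 WD libraries and the 5 batch 2 controls (points in the order of replicate number, bar and whiskers mean ± SD). Tlr1 sits at 0 in the batch 1 controls and between 3.02 and 11.1 CPM in WD, Tlr13 stands at 61.2 CPM in control 4 against 0 to 2.27 in controls 1 to 3, and Cd14 is at 0.534 CPM in WD 2.

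Lipopolysaccharide is bound by CD14, which hands it to the complex of TLR4 with MD-2, the secreted protein encoded by Ly96. Tlr4 had 166, 40, 248, 323 and 123 counts in WD 1 to 5, 0, 33, 112 and 179 in controls 1 to 4, and 232, 145, 266, 83 and 63 in controls 5 to 9. The 3 groups overlapped throughout, at 14.1 ± 8.31 CPM in WD, 6.41 ± 6.14 in batch 1 controls and 12.7 ± 6.2 in batch 2 controls. Its log2 fold change was 1.16 ± 1.24 in batch 1 and 0.15 ± 0.516 against batch 2, with exact permutation p-values of 0.143 and 0.897.

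Cd14 had 739, 5, 302, 540 and 270 counts in WD 1 to 5. It had 85, 28, 121 and 619 counts in controls 1 to 4 and 343, 224, 278, 284 and 156 in controls 5 to 9. WD 2 was the lowest of all 14 libraries, and control 4 lay among the highest. Means of 28.3 ± 20.4 CPM in WD and 16.8 ± 20.3 in the batch 1 controls differed by less than their spread (log2 fold change 0.75 ± 1.02, exact permutation p = 0.571), and the batch 2 controls were the most even, at 21 ± 3.22 CPM.

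Ly96 was the only one of the 9 with a lower mean in WD than in the batch 1 controls, 23.4 ± 15.5 against 35.1 ± 20 CPM. Its counts were 448, 34, 313, 547 and 176 in WD 1 to 5, and 207, 434, 256 and 830 in controls 1 to 4. Controls 5 to 9 had 197, 108, 174, 221 and 111 counts. The WD and batch 1 control ranges overlapped (log2 fold change -0.59 ± 0.654, exact permutation p = 0.373), whereas every batch 2 control, at 10.5 to 17 CPM, lay below every batch 1 control, at 19.6 to 62.8 CPM. Between the control groups, on the same diet, the log2 difference was -1.43 ± 0.478 for batch 2 minus batch 1 (FDR 0.487), with an exact permutation p of 0.00794 and 0.161 after adjustment over all genes. The sign of the Ly96 log2 fold change differed with the controls used, at 0.83 ± 0.492 (FDR 0.442) against batch 2 and 0.01 ± 0.543 against all 9. Ly96 did not pass an FDR of 0.05 in any of these comparisons, so a dependence on batch is not established.

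The endosomal receptors bind single-stranded RNA (TLR7), breakdown products of RNA (TLR8), unmethylated CpG DNA (TLR9) and bacterial ribosomal RNA (TLR13, present in mice). Tlr7 had 261, 53, 421, 246 and 172 counts in WD 1 to 5, 49, 0, 79 and 225 in controls 1 to 4, and 124, 37, 61, 144 and 37 in controls 5 to 9. WD 2 lay within the control range, and control 4 lay within the WD range. The mean was 17.9 ± 9.14 CPM in WD, 7.05 ± 7.19 in batch 1 controls and 6.38 ± 3.39 in batch 2 controls. The log2 fold change was alike in size against either, 1.33 ± 1.18 (exact permutation p = 0.0794) and 1.48 ± 0.525 (0.0317, edgeR FDR 0.12). Tlr7 is also on a list that the study chose on these libraries, so its direction is not independent evidence.

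Tlr8 had 60, 81, 145, 38 and 31 counts in WD 1 to 5. In controls 1 to 4 it had 0, 56, 39 and 0 counts, and in controls 5 to 9 it had 20, 0, 39, 16 and 28. The lower WD libraries lay among the controls, with means of 5.84 ± 3.59 CPM in WD, 2 ± 2.39 in batch 1 controls and 1.69 ± 1.23 in batch 2 controls. Log2 fold changes were 1.55 ± 1.73 in batch 1 and 1.78 ± 1.07 against batch 2, with exact permutation p-values of 0.119 and 0.0317.

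Tlr13 had 194, 130, 294, 408 and 148 counts in WD 1 to 5, and 24, 0, 0 and 810 in controls 1 to 4. In controls 5 to 9 it had 68, 0, 78, 25 and 19 counts. Control 4 alone lay above every WD library, and every other control lay below them all. The batch 1 log2 fold change was 0.29 ± 1.51 with control 4 (exact permutation p = 0.135) and 4.43 (FDR 0.278) without it. Against the batch 2 controls, 18.9 ± 8.62 CPM in WD stood beside 2.93 ± 2.42, a log2 fold change of 2.68 ± 0.785 with an FDR of 0.0531, the lowest of the 9 genes in edgeR's 4 comparisons. For Tlr9, 0 counts allow a level of up to 0.213 to 0.32 CPM, depending on the library.

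Across the batch 1 comparison, edgeR's quasi-likelihood test with Benjamini-Hochberg adjustment called 0 of the 9 genes tested at an FDR of 0.05, and 0.0% of the 12157 genes tested. At an unadjusted p under 0.05, 1 gene was higher in WD (Tlr1, FDR 0.434; 3.35% of all genes) and 0 were lower (1.82%). This count became 2 without control 3 (Tlr1 and Tlr6; 6.11% of all genes) and 2 without control 4 (Tlr1 and Tlr13; 5.74%). Tlr1 was also the 1 gene whose groups did not overlap (3.08% of all genes) and the 1 gene with an exact permutation p under 0.05 (8.14%). DESeq2 called Tlr1 (FDR 0.00169; 0.938% of all genes), and limma-voom and limma on the deposited log2 values called 0 (0.0% of all genes by either). The log2 fold change was above 0 for 8 of the 9, against 51.8% of all genes, with a median of 1.33 against 0.03. Here and in the next comparisons such counts and medians are descriptions only, since genes sparse in the controls passed the filter on low counts through the WD libraries. These were Tlr1 and Tlr6, over 3 counts in 2 of the 9 controls each. In batch 1 they were also Tlr8 and Tlr13, over 3 counts in 2 of the 4 controls each. Tlr2, Tlr4 and Tlr7, over 3 counts in 3 of the 4, needed WD libraries there too. The median stayed at 1.33 with Tlr1 set at its bound. Without controls 1 and 4, 1 gene was called (Tlr13, FDR 0.00614; 0.796% of all genes), with the other 2 batch 1 controls at 0 for it, and 2 had an unadjusted p under 0.05 (Tlr1 and Tlr13; 6.01% of all genes were higher). The batch 1 log2 fold changes without these controls were 2.31 for Tlr2, 1.22 for Tlr4, 1.10 for Tlr6, 2.43 for Tlr7, 0.56 for Tlr8, 2.18 for Cd14 and -0.30 for Ly96, so no direction turned.

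All 9 controls against WD gave 0 of 9 genes at an FDR of 0.05 (0.53% of 12653 genes), and 1, Tlr1, at an unadjusted p under 0.05 (log2 fold change 4.19 ± 1.6, FDR 0.412; 4.48% of all genes were higher), with 0 lower (3.25%). Without control 9 the Tlr1 log2 fold change was 6.73 (FDR 0.0745). The genes with an unadjusted p under 0.05 became 4 without control 4 (Tlr1, Tlr2, Tlr7 and Tlr13; 6.39% of all genes), 2 without control 2 (Tlr1 and Tlr7; 4.62%) and 2 without control 3 (Tlr1 and Tlr6; 4.11%). DESeq2 called 0 (1.78% of all genes), and limma-voom and limma on the deposited log2 values called Tlr1 alone (FDR 0.00593 and 0.00998; 1.76% and 1.66% of all genes). Tlr1 was also the 1 gene without overlap between WD and all controls (1.11% of all genes). Log2 fold changes were above 0 for 9 of 9, against 47.1% of all genes, with a median of 1.4 against -0.04, under the same limit. Exact permutation p-values were under 0.05 for 6 genes, all higher in WD: Tlr1, Tlr6 (0.00649), Tlr13 (0.02), Tlr8 (0.0235), Tlr7 (0.025) and Tlr2 (0.033), against 8.23% of all genes, and 0 passed after adjustment over all genes. Those of Tlr4 (0.368), Cd14 (0.871) and Ly96 (0.877), which together serve lipopolysaccharide, were not under 0.05. With single libraries left out, the exact permutation p rose to as much as 0.0965 for Tlr2, 0.0741 for Tlr7 and 0.0531 for Tlr8. It stayed under 0.05 for Tlr1, Tlr6 and Tlr13 (at most 0.0476, for Tlr13). Batch is mixed into this comparison. With batch as a covariate 0 of the 9 genes were called, where 1 of all 12653 genes was. Without controls 1 and 4, 0 genes passed an FDR of 0.05 (4.98% of all genes) and 4 had an unadjusted p under 0.05 (Tlr1, Tlr2, Tlr7 and Tlr13; 8.3% of all genes were higher).

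Against the batch 2 controls, where diet and batch cannot be told apart, edgeR called 0 of 9 genes at an FDR of 0.05, while 6.4% of 12070 genes were called. Of the 5 adipocyte markers 4 were called here, 3 lower in WD and 1, Lep, higher (4146 ± 532 CPM in WD, 1696 ± 638 in the batch 2 controls). The sum of the 5 was lower in every WD library than in every batch 2 control. The part of this in the receptor values was not tested. At an unadjusted p under 0.05, 5 genes were higher in WD (Tlr1, Tlr2, Tlr6, Tlr7 and Tlr13) against 9.83% of all genes, and 0 were lower (7.9%). The exact permutation p was under 0.05 for 5 genes too, with Tlr8 in place of Tlr2 (10.4% of all genes), and 0 passed after adjustment over all genes. The log2 fold change was above 0 for 9 of 9, against 49.8% of all genes, again with Tlr1 and Tlr6 in the test through the WD libraries. Tlr8 and Tlr13, over 3 counts in 4 of the 5 batch 2 controls each, also needed WD libraries to pass the filter. So did Tlr2, with 9 counts in control 5 and 5 in control 9. With single libraries left out, 3 to 5 genes had an unadjusted p under 0.05, Tlr13 each time. DESeq2 called Tlr13 (9.56% of all genes), limma-voom called Tlr1 (6.91%), and limma on the deposited log2 values called both (8.53%). Tlr13 was also called without a filter on low counts (4.98%) and without control 6 (4.83%), and Tlr7 without WD 2 (7.86%). For 3 genes, Tlr1, Tlr6 and Tlr13, no WD library overlapped a batch 2 control (4.88% of all genes). The batch 2 and batch 1 controls, on 1 diet, differed at an unadjusted p under 0.05 for Ly96 alone of the 7 genes tested (lower in batch 2, 3.54% of all genes), with 0 at an FDR of 0.05 by edgeR (0.0% of all genes), by DESeq2 (0.917%), and by limma-voom and limma on the deposited log2 values (0.0% each). Ly96 was also the 1 gene without overlap there (1.16% of all genes). The WD libraries are shared by 3 of these comparisons and the controls by others, so the 4 sets of values are not independent.

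**Figure D2:**
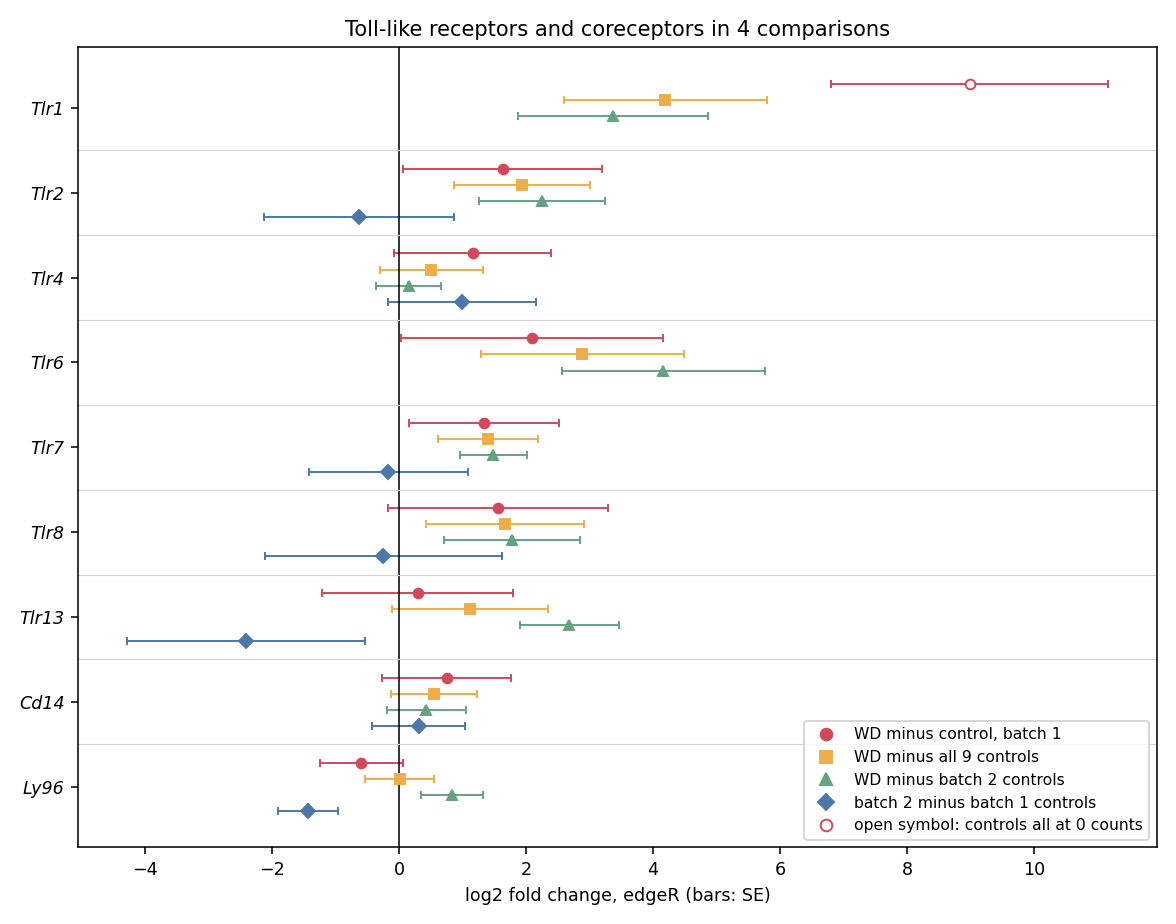
Log2 fold change of each gene (points) with its standard error (bars), from edgeR, in the 4 comparisons named in the legend. Tlr2, Tlr7 and Tlr8 lie between 1.33 and 2.25 in each comparison with WD, Ly96 changes side, and the open symbol of Tlr1 marks a fit against controls that are all at 0.

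Other genes of the pathway were taken in 7 lists. Counts over these lists are descriptions too, since list genes sparse in the controls also passed the filter through the WD libraries. Of the other Toll-like receptors, Tlr3 for double-stranded RNA, Tlr5 for flagellin, Tlr11 and Tlr12, 3 of 4 were tested in batch 1 and 0 had an unadjusted p under 0.05. Tlr5 had 70, 37, 46, 0 and 166 counts in WD 1 to 5, 0, 3, 13 and 0 in controls 1 to 4, and 164, 33, 79, 99 and 28 in controls 5 to 9. The batch 2 controls thus lay above every batch 1 control on the same diet, with a log2 difference of 4.16 ± 1.7 (FDR 0.617) where 3.85% of all genes were higher at an unadjusted p under 0.05 and 4.61% did not overlap. Tlr12 was counted in 2 of 4 batch 1 controls (46 and 166), in WD 3 (14) and WD 5 (20), and with 1 count in control 9.

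Partners related to MD-2 and CD14 were Cd180, a TLR4-like surface protein, Ly86, its MD-1 chain, Lbp, the serum protein that loads CD14, and Cd36. Cd180 had 167, 12, 110, 99 and 90 counts in WD 1 to 5, 0 in controls 1 to 4, and 0 in the batch 2 controls except for 20 in control 8. Its WD mean of 7.34 ± 3.81 CPM was at least 29-fold higher than 3 counts per library in the batch 1 controls (FDR 0.434). Like Tlr1, it was at 0 in all 4 batch 1 controls, and unlike Tlr1 its lowest WD library lay below 1 control. Ly86 was at 1.82 ± 2.16 CPM in the batch 1 controls and 15.6 ± 16.5 in WD (exact permutation p = 0.0397, edgeR FDR 1), and the mean rests largely on WD 4 at 44 CPM. Over all 14 libraries 3 of the 4 partners had an unadjusted p under 0.05 (Cd180, Ly86 and Lbp; 4.48% of all genes were higher), with 0 at an FDR of 0.05. Cd180, over 3 counts in 1 of the 9 controls, was in this test through the WD libraries.

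Another 11 genes carry endosomal receptors to their compartment, cut them there or handle what they bind. Of these, 3 were higher in WD at an unadjusted p under 0.05 in batch 1 (Unc93b1, Ctss and Cnpy3; 3.35% of all genes) and 5 with the 9 controls together (Ctss, Unc93b1, Pld3, Pld4 and Ctsb; 4.48%), with 0 lower and 0 at an FDR of 0.05. Unc93b1, the chaperone that TLR7, TLR8, TLR9 and TLR13 need to leave the endoplasmic reticulum, had 1340, 91, 1103, 763 and 848 counts in WD 1 to 5. Its counts were 71, 336, 308 and 264 in controls 1 to 4 and 611, 124, 276, 393 and 285 in controls 5 to 9. As for Tlr7, WD 2 stood apart from the other WD libraries and lay within the control range (log2 fold change 1.65 ± 0.605 in batch 1, FDR 0.698). Ctss, the protease cathepsin S, was at 921 ± 357 CPM in WD, 333 ± 378 in batch 1 controls, where control 4 held 898, and 119 ± 56.5 in batch 2 controls. Against the batch 2 controls, 4 of the 11 passed an FDR of 0.05 (Ctss, Pld3, Ctsb and Lgmn; 6.4% of all genes), and 11 of 11 had a log2 fold change above 0 (49.8%).

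The 17 adaptors and kinases had a median log2 fold change of 0.18 in batch 1, and of 0.09 against all 9 controls. In batch 1, 1 of them had an unadjusted p under 0.05 (3.35% of all genes were higher), Ticam2, the bridge between TLR4 and TRIF, with 99, 45, 119, 136 and 10 counts in WD against 1, 0, 1 and 0 in controls 1 to 4. Ticam2 thus passed the filter in batch 1 through the WD libraries. The batch 2 controls, at 129, 24, 32, 57 and 43 counts, overlapped the WD range (FDR 0.846). Irak4, the first kinase behind MyD88, was at 21 ± 7.24 CPM in WD, above every control (4.55 ± 4.19 in batch 1 and 10.3 ± 2.38 in batch 2). In batch 1 its exact permutation p was 0.00794, and 0.275 after adjustment over all genes, with an edgeR FDR of 1. Of all genes, 1.11% lay above all 9 controls in every WD library, as Irak4, Spi1 and Irf8 did. Spi1, which encodes PU.1, was the 1 gene of the 7 lists past an FDR of 0.05 over all 14 libraries. It had 1321, 1014, 985, 795 and 628 counts in WD 1 to 5, 34, 443, 96 and 535 in controls 1 to 4, and 233, 171, 102, 263 and 219 in controls 5 to 9. All 5 WD libraries lay above all 9 controls, with a log2 fold change of 2.02 ± 0.443 (FDR 0.0418) over all libraries and 1.83 ± 0.626 (FDR 0.61) in batch 1. Irf8, an interferon regulatory factor of macrophages, lay above all 9 controls too (45.1 ± 14.3 CPM in WD, 7.75 ± 11.2 in batch 1 controls and 10.2 ± 3.91 in batch 2 controls). Its exact permutation p in batch 1 was 0.00794, and 0.275 after adjustment over all genes, and its edgeR FDR over all 14 was 0.295. Of the 10 transcription factors, 1 had an unadjusted p under 0.05 in batch 1 (Spi1; 3.35% of all genes) and 2 over all 14 libraries (Spi1 and Irf8; 4.48%).

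Of the 9 inhibitors, 8 were tested and 0 had an unadjusted p under 0.05 in either comparison. Il1rl1, the IL-33 receptor, which can restrain the pathway, was at 17.6 ± 6.21 CPM in WD and 3.56 ± 3.44 in the batch 1 controls without overlap (3.08% of all genes). Its exact permutation p there was 0.00794, and 0.275 after adjustment over all genes (edgeR FDR 1), but batch 2 controls reached 19.5 CPM. Rnf216, a ubiquitin ligase for TLRs, was at 23.4 ± 10.1 CPM in WD and 39.9 ± 11.7 in batch 1 controls (exact permutation p = 0.103). The 13 inflammatory target genes were sparse, and 2 were tested in batch 1. Ccl2, the monocyte chemokine, had 246, 15, 178, 65 and 130 counts in WD 1 to 5, 1, 73, 29 and 219 in controls 1 to 4, and 1, 48, 26, 31 and 5 in controls 5 to 9. Il1b had 180 counts in WD 4 and at most 16 in the other WD libraries, and 108 in control 2. Tnf was counted in 1 library, WD 3, with 10 counts, and Il6, Ptgs2 and Ifnb1 in none. Ccl3 and Ccl4 exceeded 3 counts in 3 of the 5 WD libraries each, with 58 and 41 counts in all. In the 9 controls Ccl3 had 1 count and Ccl4 had 0, and neither gene was tested in batch 1. Cxcl1, Cxcl2, Cxcl10 and Nos2 were counted in libraries of both diets, and Il12b had 1 count, in WD. Ly86, Unc93b1, Ctss, Pld3, Pld4, Irak4, Spi1, Irf8 and Il1rl1 are on the list the study chose on these libraries, so their direction is not independent evidence.

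**Figure D3:**
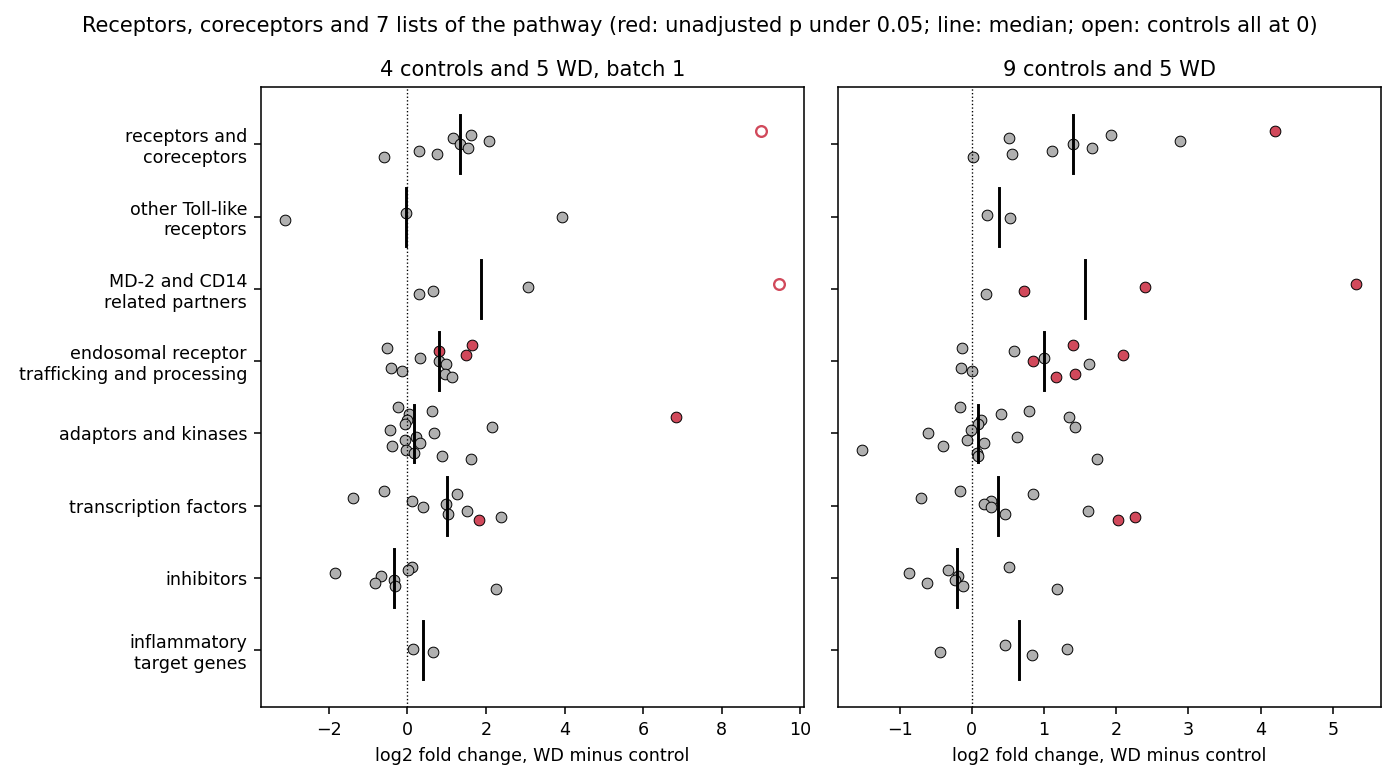
Log2 fold changes from edgeR (points, 1 per tested gene, red at an unadjusted p under 0.05 and open where the controls were all at 0; black line, median) of the receptors and coreceptors and of 7 lists of the pathway, for WD minus the batch 1 controls (left) and WD minus all 9 controls (right). The receptors and the endosomal trafficking genes have medians of 1.33 and 0.8 on the left, and the adaptors and kinases one of 0.18.

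Most macrophage markers were also higher in WD. The 11 markers (Adgre1, Cd68, Csf1r, Itgam, Itgax, Fcgr1, Mertk, Mrc1, Cd163, Lyz2 and Trem2), 0 of which were at 0 throughout, summed to 1326 to 1922 CPM in the WD libraries, 184 to 1478 in the batch 1 controls and 313 to 680 in the batch 2 controls. Control 4 held the 1478 CPM, against 184 to 735 in controls 1 to 3, and it was also the control with the most Tlr7, Tlr13, Cd14 and Ly96, while it had 0 counts of Tlr1, Tlr6 and Tlr8. Of the 10 markers tested, 9 had a log2 fold change above 0 in each comparison with WD. The exception was Cd163, a scavenger receptor of resident macrophages, at 69.3 ± 25.6 CPM in WD, 99 ± 57.5 in the batch 1 controls and 114 ± 28 in the batch 2 controls, with an unadjusted p under 0.05 against the last. In batch 1, 6 of the 10 were higher at an unadjusted p under 0.05 (3.35% of all genes), and over all 14 libraries 3 passed an FDR of 0.05 (Adgre1, Csf1r and Itgax; 0.53% of all genes). The study's list holds Adgre1, Cd68, Itgam, Itgax, Fcgr1, Lyz2 and Trem2 of these, so they too are not independent evidence. The 10 receptors and coreceptors summed to 53.2 to 194.6 CPM in WD, 35.6 to 206.1 in the batch 1 controls and 45.4 to 71.1 in the batch 2 controls. WD 2 had the lowest sum of the WD libraries, 53.2 CPM, beside a macrophage sum of 1834 CPM. The part of macrophage content in the differences above was not tested.

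As a percentage of the macrophage sum, Tlr7 stood at 1.25 ± 1.03 in batch 1 controls, 1.08 ± 0.613 in WD and 1.3 ± 0.271 in batch 2 controls. Tlr2 (0.368 ± 0.275, 0.377 ± 0.248 and 0.318 ± 0.218) and Tlr8 (0.324 ± 0.374, 0.349 ± 0.23 and 0.391 ± 0.352), in the same order of groups, also differed by less than their spread. Tlr1 was at 0 in the batch 1 controls and at 0.301 ± 0.162 percent in WD, and its batch 2 value of 0.124 ± 0.254 rests mostly on control 9. Of the lipopolysaccharide genes, Tlr4 was at 0.79 ± 0.808 in batch 1 controls, 0.835 ± 0.453 in WD and 3.07 ± 1.87 in batch 2 controls, and so was lower in WD only against batch 2. Cd14 was at 2.47 ± 1.73, 1.64 ± 1.03 and 4.82 ± 1.47, with overlap between WD and the batch 1 controls. Ly96 was at 6.04 ± 3.09, 1.36 ± 0.777 and 2.94 ± 0.495, and its WD libraries lay below every control. The batch 1 means lean on control 1, the library with the epididymis genes, whose macrophage sum was only 184 CPM. Control 1 gave the highest batch 1 control ratios for Ly96 (10.7, against a group median of 4.64), Cd14 (4.37) and Tlr7 (2.52). These ratios are descriptions and carry no test.

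**Figure D4:**
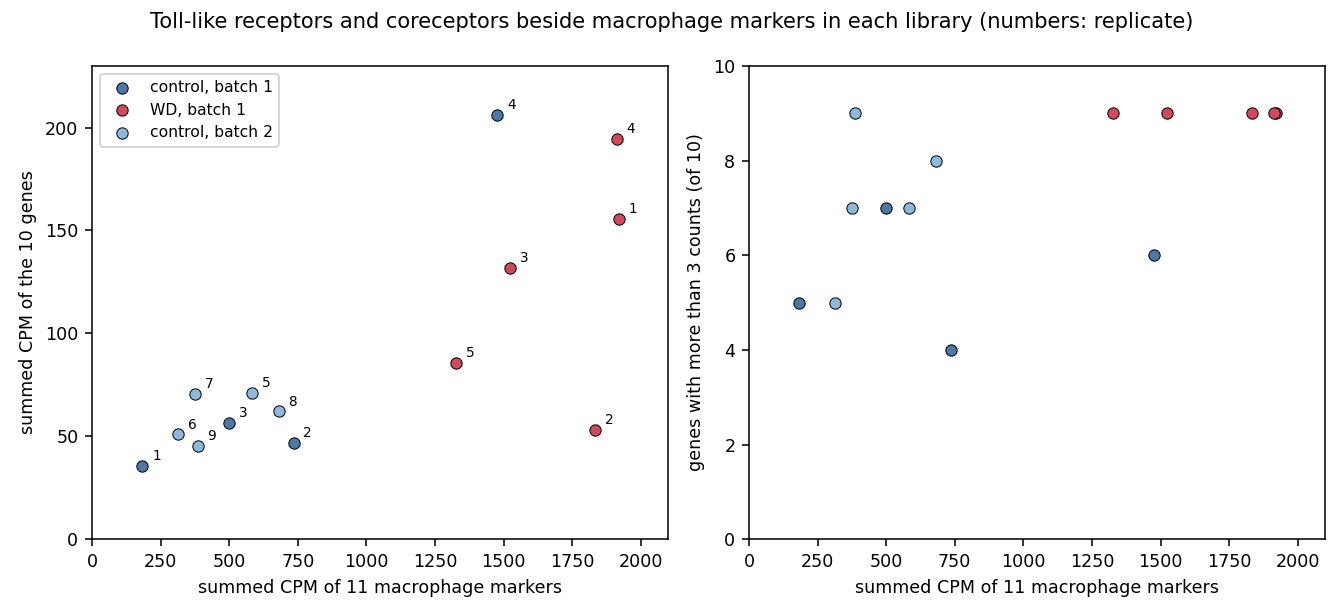
Summed CPM of the 10 receptors and coreceptors (left) and number of them with more than 3 counts (right) against the summed CPM of 11 macrophage markers, 1 point per library, colored by group and, on the left, numbered by replicate. The WD libraries lie at 1326 CPM of markers or more with 9 genes detected, and control 4 lies beside them at 1478 CPM with 6.

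Markers of other immune cells were summed in the same way. B cell markers summed to 0 to 2.66 CPM in the batch 1 controls, 3.69 to 95.8 in WD and 1.38 to 7.59 in the batch 2 controls. T cell markers summed to 0 to 7.28, 6.67 to 31.9 and 1.98 to 8.88, and dendritic cell markers to 0.764 to 12.5, 8.46 to 18.5 and 6.01 to 11.5. The highest WD sum was that of WD 3 each time. The other WD libraries reached at most 14.2 CPM for B cell markers, 14.2 for T cell markers and 11.5 for dendritic cell markers. Neutrophil marker sums had means of 195.6 ± 85.9 CPM in the batch 1 controls, 93.1 ± 43 in WD and 77.6 ± 41.8 in the batch 2 controls. The WD mean lay below the first and above the second, with overlap in both cases. Most of each sum came from S100a8 (means of 113, 71.5 and 34.1 CPM in the same order of groups) and S100a9 (70.9, 20.6 and 42.7). Between WD and the batch 2 controls these 2 genes went opposite ways, so the sums do not describe neutrophils as a cell type. Endothelial sums (51 to 220, 57.6 to 123 and 62 to 171) and mesothelial sums (0.0756 to 96.5, 17 to 123 and 44.1 to 103) overlapped between the groups.

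The genes whose log2(CPM + 1) over the 14 libraries was most like the mean of the 9 detected receptors and coreceptors were B4galt6 (Pearson r = 0.946), Coro1c (0.933), the leukocyte antigen gene Ptprc (0.932), the Src-family kinase gene Lyn (0.921) and Gusb (0.914), out of 12644 genes. For single genes the closest was Vsig8 for Tlr1 (0.927), Scamp5 for Tlr2 (0.851), E2f6 for Tlr4 (0.939), Spp1 for Tlr6 (0.913), Ctsk for Tlr7 (0.907), Stambpl1 for Tlr8 (0.901), Brox for Cd14 (0.917) and Far1 for Ly96 (0.923). Spp1 (osteopontin) and Ctsk (cathepsin K) are known from macrophages. These values describe 14 libraries that differ in batch, diet and macrophage content, and the best of many genes is high by selection.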

How the data were processed

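The authors aligned single-end QuantSeq reads of 75 bases with Bowtie2 and took counts per gene from Bedtools, in which reads with several alignments were kept. The submitters' processing notes also name FastQC and the build mm10 (GRCm38), and whether the counting used strand is not given in the sources used here. The deposited raw counts were tested as they stand. The deposited log2 values, which the authors made from TMM-scaled CPM in edgeR with 1 added, differed from the same values computed here by at most 0.136 for the 10 genes and served as an alternative. Molecular identifiers are not mentioned, and the floors cover counting error only.

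Counts were tested with edgeR 4.0.16 (quasi-likelihood, TMM, its filter on low counts, FDR 0.05 over all genes tested), without covariates, in R 4.3.3. Alternatives used DESeq2 1.42.0, limma 3.58.1, other scaling and filters, batch as a covariate, the replicate number as a block, a pseudocount of 0.1, and each library left out in turn. Single genes were compared with two-sided exact permutation tests of log2(CPM + 1), adjusted over all genes tested. Python 3.11.15, numpy 2.4.6, pandas 2.3.3 and matplotlib 3.10.9 were used for the rest. The pipeline was tested on simulated data.

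The labels number the libraries within a diet, and nothing further ties a library to an animal, so p-values measure the spread between these libraries. The 10 genes, the pathway lists and the markers were chosen with earlier results of these data known. Named genes were the 10, the list genes past an FDR of 0.05 over all 14 libraries, the 2 of lowest unadjusted p in batch 1 in each list, and the genes of closest pattern, of which that for Tlr13 is not reported here. Tlr3, Tlr11, Lbp, Cd36, Cnpy3, Pld3, Pld4, Ctsb, Lgmn, Tnf and other list genes named outside this rule were named after their values were seen. Promoters came from RefSeq and gene positions from GENCODE, both on GRCm38. Protein sequences were not used here.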

Additional observations from a re-analysis of the deposited data

Results flagged for a closer look

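Within the 26 groups of 4 or 5 libraries in which a gene varied, 3 held a library far from the rest by Dixon's criterion. The criterion assumes normally spread values, for which chance would give about 1.3. Groups with libraries at 0 are not spread in that way, so no excess can be read from these numbers. In the batch 2 controls, Tlr1 in control 9 stood at 1.69 on the log2(CPM + 1) scale (22 counts), against 0 to 0.39 in the other 4, of which 3 were at 0. In the batch 1 controls, Tlr6 in control 3 stood at 2.17 (42 counts), with the other 3 at 0. In the WD group, Cd14 in WD 2 stood at 0.62 (5 counts), against 4.53 to 5.74 in the other 4, at 270 to 739 counts. WD 2 was also the lowest WD library for Tlr4, Tlr7 and Ly96, with 40, 53 and 34 counts, but not for Tlr2, Tlr8 or Tlr1.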

How the results depend on the processing

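The number of receptors and coreceptors called at an FDR of 0.05, 0 in each comparison, became 1 in batch 1 with DESeq2 (Tlr1) and 1 without controls 1 and 4 (Tlr13). Over all 14 libraries it became 1 with limma-voom and 1 with limma on the deposited log2 values (Tlr1 both times). Against the batch 2 controls it became 1 without a filter on low counts and 1 with DESeq2 (Tlr13), 1 with limma-voom (Tlr1) and 2 with limma on the deposited log2 values (Tlr1 and Tlr13). Leaving out single libraries gave 0 to 1 there (Tlr7 without WD 2, Tlr13 without control 6) and 0 in the other comparisons. The cause was not tested. With the replicate number as a block, 0 genes were called in batch 1 and 0 over all 14 libraries. Same-numbered libraries correlated by -0.018 to 0.083, and the own-numbered library was the best match for numbers 2 and 4 but not for 1 and 3. So few numbers cannot settle whether the libraries are paired. The Ly96 log2 fold change over all 14 libraries, 0.01, turned to -0.0032 with upper-quartile factors, -0.011 where every library had to reach 1 CPM, -0.028 with DESeq2, -0.11 with limma on the deposited values, -0.51 with the replicate block and -0.61 with batch as a covariate, and ran from -0.34 to 0.36 with single libraries left out. That of Tlr13 in batch 1 ran from -0.16 to 4.43, the latter without control 4. The difference of mean log2 values over all 14 libraries turned for Cd14 to -0.0082 with a pseudocount of 0.1, and ran from -0.23 to 1.06 for Cd14 and -0.396 to 0.43 for Ly96 with single libraries left out. Over all genes, the number called in batch 1 was 0 as reported, 114 with DESeq2, 48 without control 4 and 108 without controls 1 and 4. Over all 14 libraries it was 67, against 225 with DESeq2, 223 with limma-voom, 210 with limma on the deposited values, 1 with batch as a covariate and 0 with the replicate block. Limma-voom and limma on the deposited log2 values moved the median log2 fold change of all genes in batch 1 to 0.42 and 0.23, from 0.03. At these depths a level under 3 counts could not be shown.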
